A study of Mus musculus with 7 samples.

Results

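The cytosolic ribosomal protein genes were examined in the embryonic mouse pancreas with and without a long non-coding RNA. Members were the protein-coding genes whose symbol follows the Rpl and Rps naming pattern, with Rpsa and Rplp0 to Rplp2, so pseudogenes and ribosomal protein kinases were left out. This gave 79 genes of the 27138 features in the count table, 48 of the large and 31 of the small ribosomal subunit. Of 83 symbols that matched the pattern, 3 were not protein-coding (Rpl32l, Rpl6l and Rps4l) and 1, Rpl10l, had no row. The samples were whole pancreas from E15.5 embryos, in 4 WT and 3 cKO libraries of polyadenylated RNA, each from its own animal. WT embryos were homozygous for the floxed allele mLINC00673fl/fl and carried no Cre. The cKO embryos had the same floxed alleles with Pdx1Cre, which deletes 2610035D17Rik, the mouse counterpart of human LINC00673. Pdx1 is active in pancreatic epithelium, so the mesenchyme, vessels and blood cells of the dissected organ are outside the reach of the Cre, and the WT group does not control for Cre itself. Strain, litter and dissection are not given in the labels.

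Ribosomal proteins coat and fold the ribosomal RNAs. The large subunit holds the peptidyl transferase centre, the tunnel through which the new chain leaves and the stalk that recruits elongation factors, and the small subunit holds the decoding centre and the path of the mRNA. Their mRNAs are short and abundant, and most start with a run of pyrimidines at the cap (a terminal oligopyrimidine, or TOP, motif) through which mTOR and Larp1 control their translation. Because these mRNAs are so abundant in the germ line, the mouse genome holds many intronless copies of them, called processed pseudogenes, and reads from gene and copy can be hard to tell apart. In the exocrine pancreas, the acinar cell makes digestive enzymes in bulk and is rich in ribosomes.

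How similar such copies are can be read from the sequences of 4 members whose copies are described further on. Each pair below shows a coding stretch of a member (positions counted from the A of the start codon) above the same stretch of a near-identical copy in the GENCODE M21 transcripts, which follow the reference strain, and capitals mark the bases that differ. Rpl34 (chromosome 3) and Rpl34-ps1 (chromosome 6) differed at 2 of 351 coding bases, T132C and C318G, and their longest identical stretch was 185 bases. Rplp0 (chromosome 5) and Gm8730 (chromosome 8) differed at 12 of 951 bases, of which A390G, A393G and A447T lie in the stretch shown. Rps18 (chromosome 17) and Gm11361 (chromosome 13) differed at 3 of 456 bases, T11A first, and Rpl30 (chromosome 15) and Gm12191 (chromosome 11) at 1 of 345, G96A.
Rpl34 bases 102 to 161: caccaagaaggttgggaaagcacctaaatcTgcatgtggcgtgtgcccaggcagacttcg
Rpl34-ps1, same bases: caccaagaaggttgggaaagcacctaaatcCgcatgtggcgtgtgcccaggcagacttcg
Rpl34 bases 288 to 347: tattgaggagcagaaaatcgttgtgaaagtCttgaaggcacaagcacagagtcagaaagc
Rpl34-ps1, same bases: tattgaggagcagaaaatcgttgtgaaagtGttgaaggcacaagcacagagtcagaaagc
Rplp0 bases 388 to 447: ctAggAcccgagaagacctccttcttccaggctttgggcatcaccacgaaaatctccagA
Gm8730, same bases: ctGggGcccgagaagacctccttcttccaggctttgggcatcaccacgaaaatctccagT
Rps18 bases 1 to 60: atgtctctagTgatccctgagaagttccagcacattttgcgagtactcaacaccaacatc
Gm11361, same bases: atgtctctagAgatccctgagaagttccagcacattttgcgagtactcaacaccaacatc
Rpl30 bases 66 to 125: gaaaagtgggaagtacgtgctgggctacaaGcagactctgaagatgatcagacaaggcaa
Gm12191, same bases: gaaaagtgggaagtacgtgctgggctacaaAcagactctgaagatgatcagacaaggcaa

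Library totals ran from 14883918 counts (WT replicate 4) to 17767373 (WT replicate 1), and the filter on low counts kept 16910 features for the test. Values are given as CPM, that is counts relative to the TMM-scaled total of the library. The targeted gene 2610035D17Rik was lower in every cKO library, with 7.93 to 9.08 CPM in WT and 2.01 to 3.38 CPM in cKO (log2 fold change −1.76, SE 0.215, edgeR adjusted p = 0.0902). Epithelial markers were present in all libraries: the summed level of 7 epithelial genes was 2143 to 2590.2 CPM in WT and 2191 to 2478 CPM in cKO, and no marker of the epithelial, acinar, endocrine, liver or blood lists had 0 counts in all libraries. Xist was present in WT replicate 2 alone, and the column header of WT replicate 4 carries another number than the 6 others, whose meaning is not stated.

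Together the members took between 5.24% and 6.66% of all counts in a library. The mean was 5.65% ± 0.453 (SD, n = 4) in WT and 6.13% ± 0.574 (SD, n = 3) in cKO. The difference of 0.479 percentage points was thus about as large as the SD within a group. The large subunit took 3.04%, 3.33%, 3.06% and 3.59% in WT replicates 1 to 4 and 3.85%, 3.57% and 3.23% in cKO replicates 1 to 3. The small subunit took 2.33%, 2.40%, 2.19% and 2.66% in WT replicates 1 to 4 and 2.81%, 2.64% and 2.29% in cKO replicates 1 to 3. Both subunits put the libraries in nearly the same order, with cKO replicate 1 at the top, then WT replicate 4 and cKO replicate 2, and the groups overlapped. The means were 3.25% ± 0.262 (SD, n = 4) and 3.55% ± 0.312 (SD, n = 3) for the large subunit, and 2.40% ± 0.198 and 2.58% ± 0.263 for the small. Counts of the large subunit were 1.30 to 1.41 times those of the small subunit in every library, and this ratio overlapped between the groups too.

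The 3 libraries richest in ribosomal protein counts were also the 3 highest in acinar markers. The summed level of 6 acinar genes, digestive enzymes and their precursors, was 23163, 25220.1, 24705 and 50094 CPM in WT and 42075, 34332 and 23593 CPM in cKO. The match was not particular to acinar genes, since the same 3 libraries were highest in endocrine and macrophage markers. The 6 endocrine genes summed to 1544, 1578, 1424 and 1985 CPM in WT and 2080, 1822 and 1690 CPM in cKO. Liver markers, 12 secreted plasma proteins of hepatocytes, summed to 366, 552, 418 and 1345 CPM in WT and 1989, 537 and 475 CPM in cKO, so WT replicate 4 and cKO replicate 1 stood above the other 5 libraries. Haemoglobins and other erythroid markers (11 genes) ranged over 985 to 2346 CPM in WT and 1341 to 2847 CPM in cKO, with the same 2 libraries on top. In the fit 4 of 6 acinar, 12 of 12 liver and 10 of 11 erythroid genes were higher in cKO, and 0 passed the threshold. The median SE of the liver genes was 1.33. The 1 erythroid gene fitted lower had a log2 fold change of −1.63 (edgeR adjusted p = 0.406), and its groups did not overlap. Over all features the groups were separate with cKO lower for 1.43%. The sum of 7 S phase and mitosis genes, unlike the acinar, liver and erythroid sums, was lowest in cKO replicate 1. It was 1642, 2016, 1684 and 1552 CPM in WT and 1420.0, 1638 and 1884 CPM in cKO. The part of these cell types in the ribosomal protein values was not tested, and in whole tissue fewer cells of a type and less RNA per cell cannot be told apart.

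**Figure D1:**
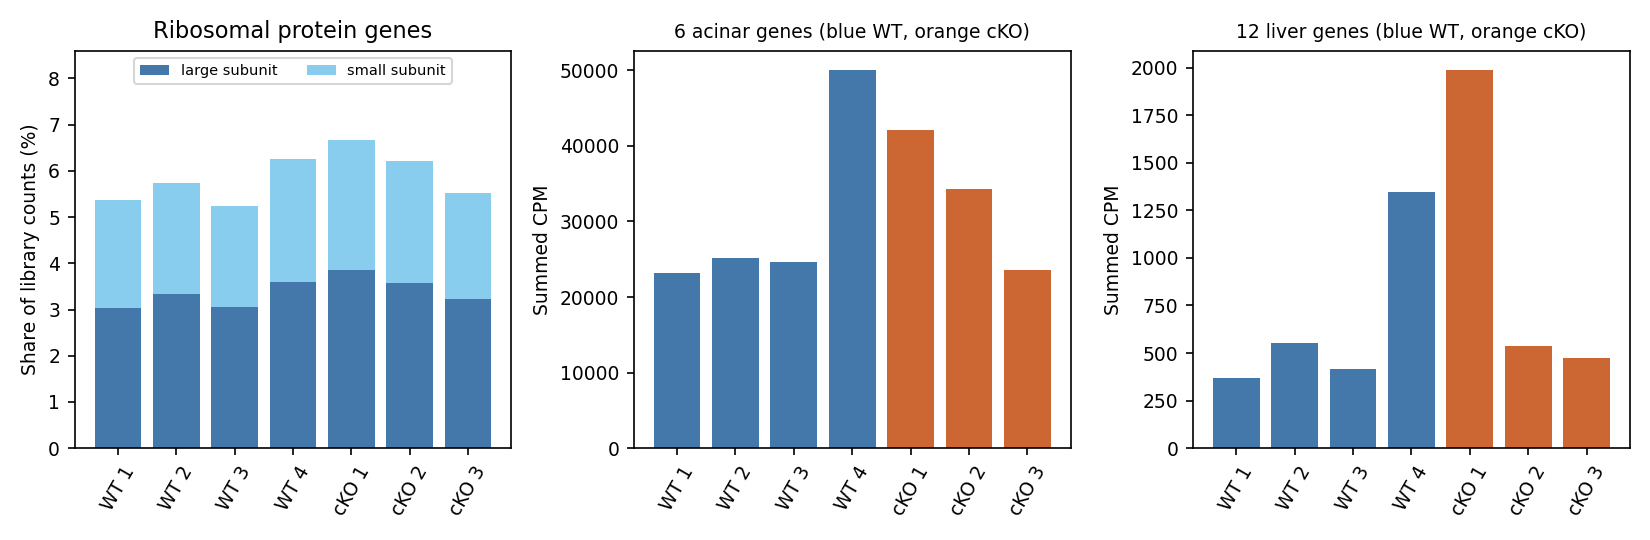
Left, share of each library's counts taken by large and small subunit genes (stacked bars, %); middle and right, summed CPM of 6 acinar and 12 liver genes in the same libraries (1 bar per library). The ribosomal share ran from 5.24% in WT replicate 3 to 6.66% in cKO replicate 1, and the 3 libraries with the highest shares had the highest acinar sums. The same libraries had the highest endocrine and macrophage sums, which are not plotted.

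No member passed the test between cKO and WT. A total of 77 members were tested, 46 of the large and 31 of the small subunit, and 0 passed an adjusted p under 0.05 in either direction with edgeR's quasi-likelihood test (Benjamini-Hochberg over all 16910 features; smallest adjusted p of a member 0.9999). Over all features 0.00591% were called higher and 0.0% lower, so nearly no gene passed in this comparison. DESeq2 and limma-voom also called 0 members, where they called 0.0118% and 0.00591% of all features higher and 0.0651% and 0.0% lower. At an unadjusted p under 0.05, 0 members were higher and 0 lower (0.668% and 0.716% of all features). The 2 untested members, Rpl39l and Rpl3l, had too few counts.

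The fitted differences were small and nearly all of one sign. Of 46 tested large subunit genes 45 had a fitted value above 0, as did 29 of 31 small subunit genes, against 46.0% of all tested features. The median log2 fold change was 0.14 for the large and 0.13 for the small subunit, beside −0.013 for all features, and 70 of 77 members lay within 0.25 of no change. The median SE of a member was 0.122. These genes share their libraries, so a common sign over members is not many independent observations. Without cKO replicate 1 the medians were 0.046 and 0.037, with 58 of 77 members above 0. Both were nearer 0.2 without WT replicate 4 (0.20 and 0.19) or cKO replicate 3 (0.21 and 0.20). With both WT replicate 4 and cKO replicate 1 left out, a choice made after seeing the data, they were 0.11 and 0.091.

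**Figure D2:**
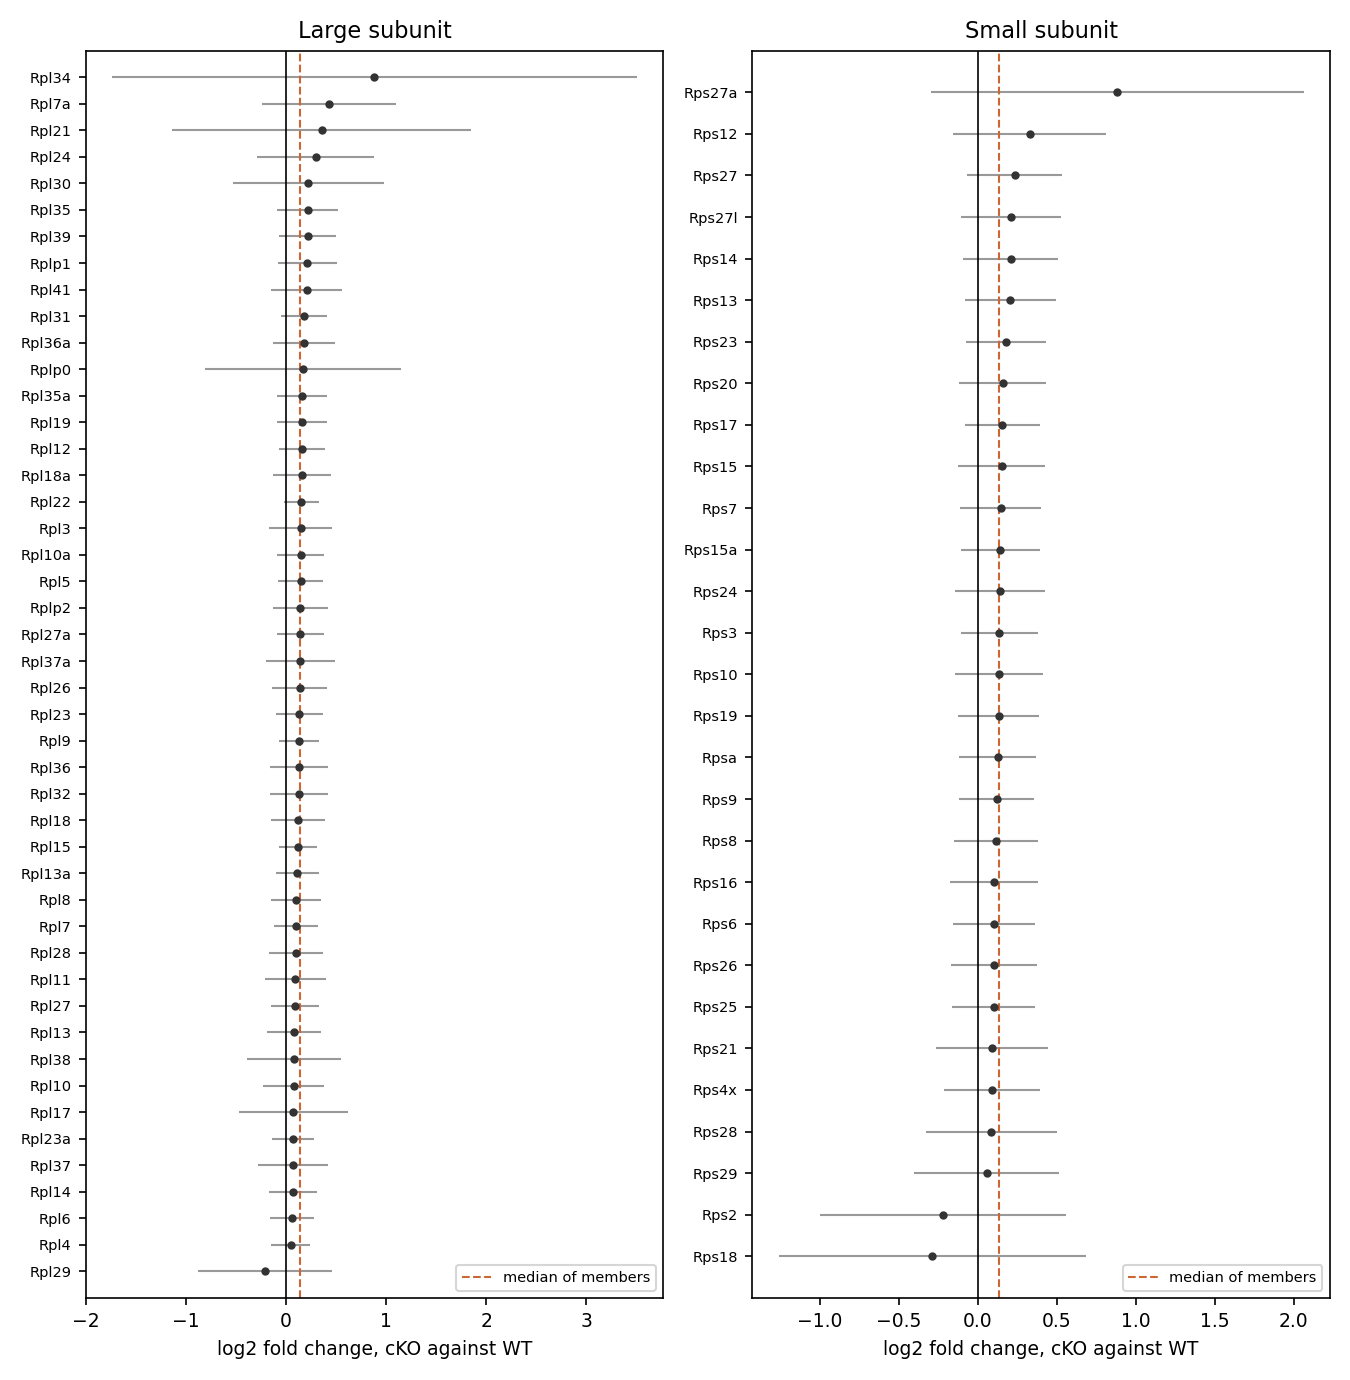
Fitted log2 fold change of the tested members shown (points) with its 95% interval (bars), cKO against WT, by subunit; the dashed line is the median of the subunit, 0.14 and 0.13. Each interval includes 0, and the intervals are widest for Rpl34, Rpl21, Rps27a and Rplp0.

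Mean levels of the tested members ran from 6.75 to 2223 CPM in the large and from 116 to 2132 CPM in the small subunit, and between the lowest and highest library a member differed by a median of 1.38-fold. Of 77 tested members 67 were highest in cKO replicate 1, which was the highest library for 23.7% of all features. Most members were steady: the SD of log2 CPM over the 7 libraries exceeded 0.3 for 12 of 77 members and for 30.4% of all features. Among the 65 steady members, 61 were highest in cKO replicate 1 and 65 had a fitted value above 0. The 12 variable members were Rpl7a, Rpl17, Rpl21, Rpl24, Rpl29, Rpl30, Rpl34, Rplp0, Rps2, Rps12, Rps18 and Rps27a. The members with fitted values below 0, Rpl29, Rps2 and Rps18, were all among these 12. Single libraries moved the fitted values: of the 39 members looked at one by one, 31 came nearer to 0 by over 1.5 times, or turned sign, without cKO replicate 1. Without cKO replicate 3, 24 of the 39 were farther from 0 by over 1.5 times.

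**Figure D3:**
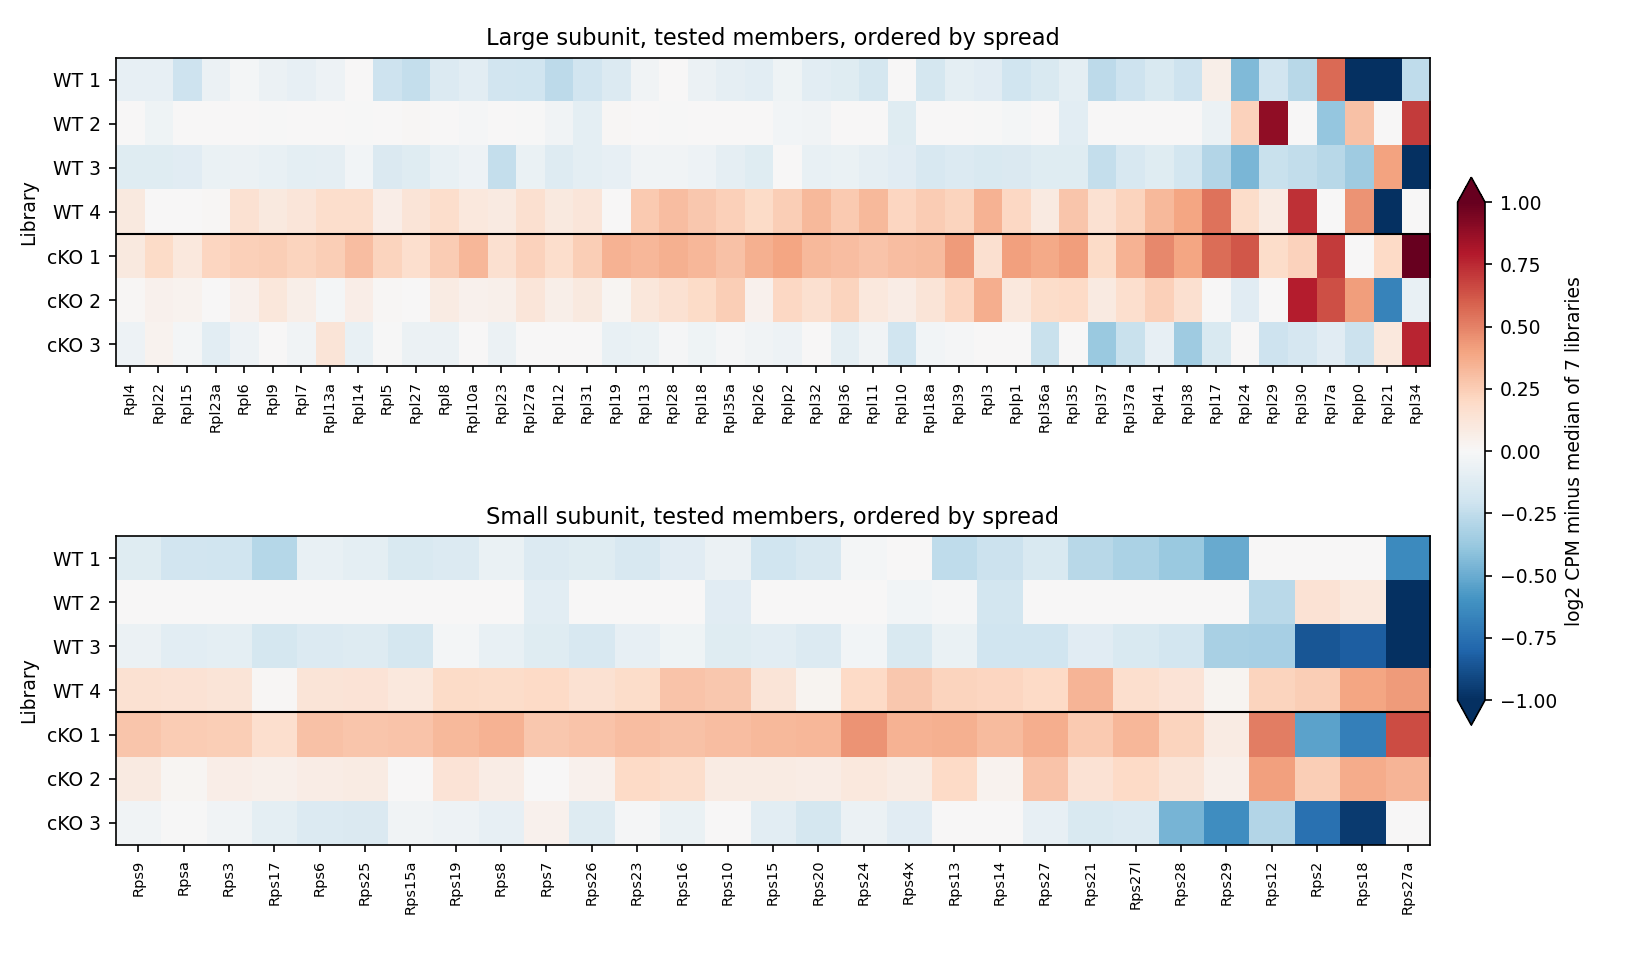
Heat map of log2 CPM minus the median of the 7 libraries for the tested members shown (columns, ordered by spread) in each library (rows; line between WT and cKO), large subunit above and small subunit below; colours saturate at ±1. WT replicate 4 and cKO replicate 1 are high for most members, WT replicates 1 and 3 are low, and a few genes at the right of each panel follow patterns of their own.

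The P stalk of the large subunit, which binds the elongation factors, was encoded by some of the most abundant members. Rplp1 had 1188, 1342, 1231 and 1569 CPM in WT replicates 1 to 4 and 1808, 1466 and 1361 CPM in cKO replicates 1 to 3 (fitted log2 fold change 0.21, SE 0.131; 0.092 without cKO replicate 1). Rplp2, its partner in the stalk dimers, had 542, 550.0, 559 and 663 CPM across WT and 734, 644 and 540.1 CPM across cKO (fitted log2 fold change 0.14, SE 0.122). For both, cKO replicate 1 was highest and the groups overlapped. Rplp0, the anchor that carries the dimers, varied far more, with 868, 2568, 1636 and 2860.0 CPM across WT and 2091, 2794 and 1804 CPM across cKO (fitted log2 fold change 0.17, SE 0.408), and its lowest library was WT replicate 1. The 4 stalk genes, Rpl12 included, were all fitted above 0, with a median of 0.16 and 0 called.

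The 5S RNP is the particle of 5S ribosomal RNA with Rpl5 and Rpl11 that also binds the p53 ligase Mdm2 when ribosome assembly is disturbed. Rpl5 had 1124, 1300.2, 1179 and 1364 CPM in WT replicates 1 to 4 and 1513, 1313 and 1297 CPM in cKO replicates 1 to 3 (fitted log2 fold change 0.15, SE 0.101). Rpl11 had 711, 804, 757 and 1008 CPM across WT and 978, 863 and 783 CPM across cKO (fitted log2 fold change 0.093, SE 0.134; 0.011 without cKO replicate 1), highest in WT replicate 4, and the groups overlapped for both genes. Mdm2 itself had 53.9, 45.6, 51.9 and 48.97 CPM across WT and 57.6, 55.1 and 49.1 CPM across cKO (fitted log2 fold change 0.11, SE 0.0917), and Trp53, which encodes p53, had a log2 fold change of −0.0043 (SE 0.0781).

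Around the peptidyl transferase centre, Rpl3 and Rpl8 reach towards the active site and Rpl10 joins late in assembly. Rpl3 had 1164, 1253, 1134 and 1595 CPM in WT replicates 1 to 4 and 1405, 1615 and 1257 CPM in cKO replicates 1 to 3 (fitted log2 fold change 0.15, SE 0.139). Rpl8 had 1200.0, 1319, 1249.8 and 1491 CPM across WT and 1571, 1394 and 1263 CPM across cKO (fitted log2 fold change 0.10, SE 0.109). Rpl8 followed the common order of libraries, whereas Rpl3 was highest in WT replicate 4 and cKO replicate 2. Rpl10, which is X-linked, had 784, 721, 723 and 911 CPM across WT and 972, 826 and 683 CPM across cKO (fitted log2 fold change 0.075, SE 0.135), and its fitted value was −0.052 without cKO replicate 1.

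At the exit of the peptide tunnel, where chaperones and the signal recognition particle dock, 6 of 6 members were fitted above 0 (median 0.17, 0 called). Rpl31 had 562, 599, 598 and 698 CPM in WT replicates 1 to 4 and 759, 687 and 641 CPM in cKO replicates 1 to 3 (fitted log2 fold change 0.18, SE 0.101). Rpl23a, a docking site of the signal recognition particle and among the steadiest members, had 387, 403, 384 and 406 CPM across WT and 467, 402 and 374 CPM across cKO (fitted log2 fold change 0.069, SE 0.0925), and its fitted value was −0.020 without cKO replicate 1. Rpl39, a very small protein in the tunnel wall, had 366, 392, 356 and 458 CPM across WT and 526, 454 and 389 CPM across cKO (fitted log2 fold change 0.22, SE 0.127). Rpl31 and Rpl39 were among the large subunit members with the smallest p, and in both genes the groups overlapped. Rpl4, whose loop narrows the tunnel, had 2109, 2228, 2048 and 2389 CPM across WT and 2389, 2247 and 2152 CPM across cKO and the closest agreement between libraries of all members, 1.17-fold from lowest to highest (fitted log2 fold change 0.045, SE 0.0881).

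Other large subunit members were picked by abundance or by their known roles. Rpl13 had 1499, 1535, 1498 and 1845 CPM in WT replicates 1 to 4 and 1933, 1659.7 and 1466 CPM in cKO replicates 1 to 3 (fitted log2 fold change 0.081, SE 0.120), and its fitted value was −0.023 without cKO replicate 1. Rpl41, among the smallest proteins known, had 944, 1049, 965 and 1315 CPM across WT and 1465, 1237 and 993 CPM across cKO (fitted log2 fold change 0.21, SE 0.157). In both genes WT replicate 4 lay within the cKO range. Rpl38, whose loss in Tail-short mice alters the axial skeleton, had 122, 141, 124 and 185 CPM across WT and 185, 157 and 110.2 CPM across cKO (fitted log2 fold change 0.078, SE 0.204), and the fitted value was −0.089 without cKO replicate 1. Rpl36a, X-linked, had 241, 268, 246 and 285 CPM across WT and 348, 304 and 230.2 CPM across cKO (fitted log2 fold change 0.18, SE 0.136). Without cKO replicate 1 the fitted values were 0.068 for Rpl41 and 0.044 for Rpl36a.

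Rpl22 (ENSMUSG00000028936) was the only tested member whose groups did not overlap. It had 401, 411, 391 and 425 CPM in WT replicates 1 to 4 and 486, 438 and 435 CPM in cKO replicates 1 to 3, so the lowest cKO library stood just above the highest WT library. Its log2 fold change was 0.15 (SE 0.0787, 95% interval −0.024 to 0.33, edgeR adjusted p = 0.9999), and it stayed between 0.11 and 0.18 when any 1 library was left out. Over all features the groups were separate with cKO higher for 1.3% and with cKO lower for 1.43%, and 1 of 77 members is near that background. Its paralogue Rpl22l1, which can replace it in the ribosome and lies outside the naming pattern, had 107, 112, 95.2 and 111 CPM across WT and 146, 109 and 116 CPM across cKO (fitted log2 fold change 0.22, SE 0.112).

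In the small subunit, the proteins of the mRNA entry channel and decoding site (Rps2, Rps3, Rps9, Rps15 and Rps23) had 4 of 5 fitted values above 0 and those of the mRNA exit, Rpsa among them, 5 of 5, with 0 called. Rps3 had 1148, 1318, 1230.4 and 1444 CPM in WT replicates 1 to 4 and 1567, 1381 and 1288 CPM in cKO replicates 1 to 3 (fitted log2 fold change 0.14, SE 0.107). Rps9 had 1124, 1224, 1174 and 1364 CPM across WT and 1479, 1304 and 1194 CPM across cKO (fitted log2 fold change 0.12, SE 0.104). Rpsa, known also as the laminin receptor precursor, had 1838, 2098, 1955 and 2318 CPM across WT and 2496, 2123 and 2095 CPM across cKO (fitted log2 fold change 0.13, SE 0.109). All 3 were highest in cKO replicate 1 and second in WT replicate 4.

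Rps6, the substrate of the S6 kinases downstream of mTOR, had 1112, 1169.6, 1066 and 1277 CPM in WT replicates 1 to 4 and 1431, 1231 and 1064 CPM in cKO replicates 1 to 3 (fitted log2 fold change 0.10, SE 0.115), and its fitted value was −0.0050 without cKO replicate 1. Rps19, the gene most often mutated in Diamond-Blackfan anaemia, had 649, 713, 703 and 816 CPM across WT and 894, 784 and 687 CPM across cKO (fitted log2 fold change 0.13, SE 0.115; 0.037 without cKO replicate 1). Rps4x, X-linked, had 1252, 1226, 1126 and 1507 CPM across WT and 1594, 1329 and 1158 CPM across cKO (fitted log2 fold change 0.090, SE 0.135), and −0.033 without cKO replicate 1. For each the WT and cKO ranges overlapped. Rps20 was among the steadiest small subunit genes across WT animals, with 652 to 744 CPM in WT and 646 to 918 CPM in cKO. Rps13 had 387, 458, 440.0 and 539 CPM across WT and 589, 528 and 461 CPM across cKO (fitted log2 fold change 0.21, SE 0.128).

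The 4 X-linked members could be read against embryo sex. Their summed level was 2643, 2606, 2451 and 3161 CPM in WT and 3440.2, 2912 and 2459.8 CPM in cKO. WT replicate 2, the library with Xist, lay within the range of the other WT libraries.

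Of the paralogues that carry an l in the symbol, Rps27l alone had a level near that of its parent, 403 CPM per kb of transcript beside 497 for Rps27. Rps27l, known as a p53 target, had 158, 197, 177 and 221 CPM in WT replicates 1 to 4 and 248, 227 and 179.5 CPM in cKO replicates 1 to 3 (fitted log2 fold change 0.21, SE 0.141). Rps27 had 169, 188, 164 and 216 CPM across WT and 242, 229 and 178 CPM across cKO (fitted log2 fold change 0.23, SE 0.133), so both genes moved over nearly the same range. Rpl3l, a muscle form of Rpl3, had 0 to 8 counts per library, and Rpl39l, a testis form of Rpl39, 0 to 3, which is too few for a comparison. Reads of Rps27 can also match Rps27rt, a retrogene outside the naming pattern, with 119, 156, 163 and 147 CPM across WT and 189, 138 and 146 CPM across cKO.

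Rps27a (ENSMUSG00000020460), which is made as a fusion with ubiquitin, had the largest fitted difference of the small subunit. It had 369, 220.4, 228 and 772 CPM in WT replicates 1 to 4 and 901, 725 and 574 CPM in cKO replicates 1 to 3 (log2 fold change 0.88, 95% interval −0.30 to 2.06, edgeR adjusted p = 0.9999). The lowest cKO library lay below WT replicate 4, so the groups overlapped, and WT replicates 2 and 3 were lowest. Leaving out WT replicate 4 gave 1.42 and leaving out cKO replicate 1 gave 0.72. Adding its 2 copies left a range of 3.38-fold over libraries, beside 4.09-fold for the gene alone, and the nearest copies, Gm8430 and Rps27a-ps2, stayed at 32.8 to 45.8 and 9.06 to 17.9 CPM.

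Most members had near copies elsewhere in the annotation. Cut into words of 31 bases, the coding sequences of 33 of 77 tested members recurred completely in transcripts of other genes, and 72 of 77 recurred for at least 50% of their words. The 268 rows of the table that held at least 50% of a member's words, 256 of them annotated as pseudogenes, took 0.616% to 0.823% of the counts of a library. Rpl8 (11.1%) and Rps3 (19.03%) were among the members with few shared words, and they differed 1.31- and 1.36-fold between their lowest and highest library. Members whose words recurred completely had small and large ranges alike, with 1.25-fold for Rpl15 and Rpl23a and 4.83-fold for Rpl21. When copies were added to their gene, in a step chosen after seeing the data, the variable members (SD over 0.3) numbered 5 instead of 12, of which 4 were among the 12 and Rps29 was not, again with 0 called, and the medians were 0.14 and 0.13.

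For several variable members the gene and 1 copy were high in different libraries, and their sum was steadier than either. Rpl34 (ENSMUSG00000062006), a protein of the large subunit, had 254, 493, 10.1 and 303 CPM in WT replicates 1 to 4 and 664, 287 and 515 CPM in cKO replicates 1 to 3 (log2 fold change 0.88, 95% interval −1.74 to 3.51). Rpl34-ps1 had 279, 34.6, 505 and 334 CPM across WT and 47.1, 305 and 35.7 CPM across cKO. In WT replicate 3 the gene was nearly empty and the copy at its highest, and in WT replicate 2, cKO replicate 1 and cKO replicate 3 the copy was low. The sum of Rpl34 and its 3 copies was 539.8, 537, 520.3 and 644 CPM across WT and 721, 598 and 559.6 CPM across cKO, a range of 1.39-fold, where the gene alone had 65.9-fold. Within the coding sequence, only a read over 1 of the 2 bases shown in capitals above can be placed by a difference between the 2 reference sequences. How such reads were counted and which alleles the animals carried was not tested.

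Rplp0 (ENSMUSG00000067274) and its copy were also high in different libraries. Against the values above, Gm8730 had 1136, 39.5, 671 and 47.6 CPM in WT replicates 1 to 4 and 827, 46.7 and 695 CPM in cKO replicates 1 to 3. It was high in WT replicates 1 and 3 and cKO replicates 1 and 3 and below 50 CPM in WT replicates 2 and 4 and cKO replicate 2, where Rplp0 was highest. The sum of both was 2004, 2607, 2307 and 2908 CPM across WT and 2917, 2841 and 2499 CPM across cKO. That sum followed the order of most other members, with WT replicate 4 and cKO replicate 1 highest. Rplp0 is a common reference gene in quantitative PCR, and its CPM without the copy spanned 3.30-fold.

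Rps2 and Rps18, both on chromosome 17, were low in the same 3 libraries. Other members on that chromosome did not share this: Rpl10a, Rpl36, Rps10 and Rps28 were highest in cKO replicate 1, which is among those 3 libraries. Rps2 had 1777, 1961, 983 and 2113 CPM in WT replicates 1 to 4 and 1225, 2108 and 1059 CPM in cKO replicates 1 to 3 (fitted log2 fold change −0.22, SE 0.329). Its copy Rps2-ps10 had 11.7, 15.9, 368 and 15.1 CPM across WT and 441, 17.2 and 366 CPM across cKO, high only in WT replicate 3, cKO replicate 1 and cKO replicate 3. Rps18 had 843, 905, 475 and 1108 CPM across WT and 524, 1089.6 and 434 CPM across cKO (fitted log2 fold change −0.29, SE 0.406). Its copy Gm11361 had 63.7, 86.6, 133 and 60.6 CPM across WT and 208, 63.1 and 164 CPM across cKO and was highest in those 3 libraries. The sums with all copies remained lower there, at 1836, 2028, 1390.2 and 2184 CPM across WT and 1715, 2186 and 1473 CPM across cKO for Rps2 and 924, 1013, 643 and 1179.9 CPM across WT and 780.1, 1169 and 636 CPM across cKO for Rps18. Without both WT replicate 4 and cKO replicate 1 the fitted values of the 2 genes were 0.0094 and 0.040, above 0 where they had been below. Leaving out cKO replicate 3 alone gave −0.036 and −0.046, and leaving out cKO replicate 2 gave −0.59 and −0.80.

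Rpl30 and Rpl3, both on chromosome 15, were highest in WT replicate 4 and cKO replicate 2. Rpl8 and Rpl37, on the same chromosome, were highest in cKO replicate 1. Rpl30 had 212, 257, 216 and 426 CPM in WT replicates 1 to 4 and 301, 443 and 228 CPM in cKO replicates 1 to 3 (fitted log2 fold change 0.22, SE 0.319), and its fitted value was −0.074 without cKO replicate 2. Gm12191, which differs from it at 1 coding base, had 127, 149, 131 and 29.8 CPM across WT and 167, 28.01 and 126 CPM across cKO, lowest in exactly those 2 libraries. The sum with 7 copies was 351, 413, 354 and 476 CPM across WT and 476, 483 and 362 CPM across cKO. For Rpl3 the range over libraries was 1.42-fold for the gene and 1.22-fold with copies.

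Rps3a1, a small subunit gene that the naming pattern leaves out, lies on chromosome 3 like Rpl34. It had 1409, 889, 240.1 and 954 CPM in WT replicates 1 to 4 and 1862, 1515 and 865 CPM in cKO replicates 1 to 3 (log2 fold change 0.70, 95% interval −0.73 to 2.13). Its copies Rps3a2 and Rps3a3 had 27.3, 313, 568 and 321 CPM across WT and 31.1, 33.9 and 304 CPM across cKO and 7.73, 256, 428 and 281 CPM across WT and 9.22, 9.65 and 235 CPM across cKO. All 3 rows stood apart in WT replicate 3, where the gene was lowest and both copies highest. In other libraries these copies did not always follow Rpl34-ps1. They were low in WT replicate 1 and cKO replicate 2, where Rpl34-ps1 was high. In WT replicate 2 and cKO replicate 3 they were high and Rpl34-ps1 was low. With 5 copies added the sum was 1449.7, 1464, 1240.2 and 1563 CPM across WT and 1909.7, 1567 and 1410.1 CPM across cKO.

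**Figure D4:**
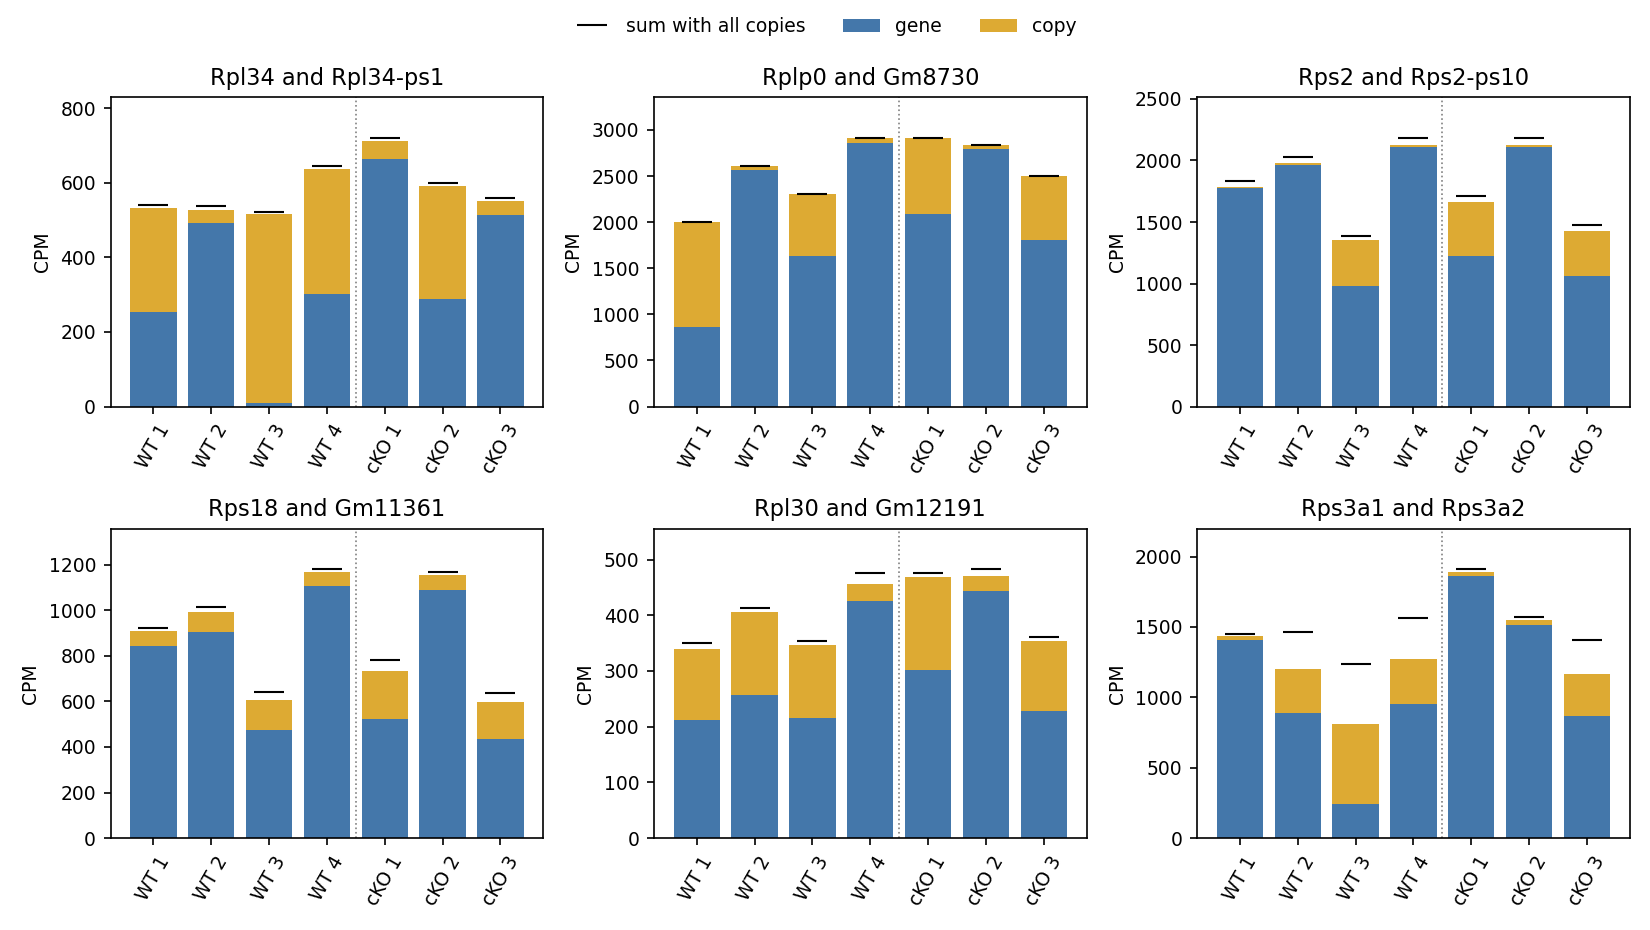
CPM of a gene (blue) and of 1 near-identical copy (yellow), stacked, in each library; black dashes give the sum with all copies. For Rpl34 the copy takes most of the stack in WT replicate 3 and little in WT replicate 2, cKO replicate 1 and cKO replicate 3, while the sum stays between 520.3 and 721 CPM.

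Of the other variable members, Rpl29, a heparin-binding member of the large subunit, had 189.6, 399.9, 185 and 229.9 CPM in WT replicates 1 to 4 and 247, 217 and 187 CPM in cKO replicates 1 to 3 (fitted log2 fold change −0.21, SE 0.284), about double in WT replicate 2, and its fitted value was 0.11 without that library. Rpl21 had 28.5, 104, 138 and 38.8 CPM across WT and 119, 65.6 and 112 CPM across cKO (fitted log2 fold change 0.35, SE 0.609), and its fitted value was 0.079 without WT replicate 1 and 0.79 without WT replicate 3. With 11 and 19 copies added both genes varied by more than 0.3 (SD of log2 CPM), as they had alone, and so did Rps18 and Rps27a; Rps29 came to exceed 0.3 only with its copies. Rpl7a had 299, 155, 166 and 202 CPM across WT and 328, 317 and 187 CPM across cKO (fitted log2 fold change 0.43, SE 0.284). Rps12 had 411, 340.4, 327 and 479 CPM across WT and 587, 545 and 336 CPM across cKO (fitted log2 fold change 0.33, SE 0.210). Rpl17 had 344, 316, 269 and 480.5 CPM across WT and 486, 329.7 and 297 CPM across cKO (fitted log2 fold change 0.074, SE 0.234), with −0.16 without cKO replicate 1. For these 3 genes cKO replicate 1 was highest, the groups overlapped, and the range over libraries went from 2.12-, 1.79- and 1.81-fold to 1.55-, 1.65- and 1.38-fold with copies. Rpl24 was far below every other tested member, with 4.81, 7.63, 4.75 and 7.42 CPM across WT and 10.05, 6.04 and 6.52 CPM across cKO, and its copies Gm9385 and Gm12254 had more reads than the gene in most libraries.

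Levels compared between genes per length, as CPM per kb of the median annotated protein-coding transcript, differed 5.58-fold between the 90th and 10th percentile of large subunit members and 3.38-fold in the small subunit. The highest were Rplp1 with 2853, Rplp0 with 2446, Rpl41 with 2162, Rps14 with 2108 and Rpl13 with 2094 CPM per kb, averaged over libraries. Proteins of the ribosome are mostly present in 1 copy each, apart from Rplp1 and Rplp2, which enter the stalk as dimers. Rplp2 had 1347 CPM per kb. The lowest tested members were Rpl24 with 9.96, Rpl21 with 81.2 and Rpl13a with 141 CPM per kb in the large and Rps20 with 198 in the small subunit. All of Rpl24's and Rpl21's words recur elsewhere, and the median annotated length of Rps20 was 3706 bases, and the part of either in these low values was not tested. With the union of exons as length the percentile ratios were 8.53 and 4.70.

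**Figure D5:**
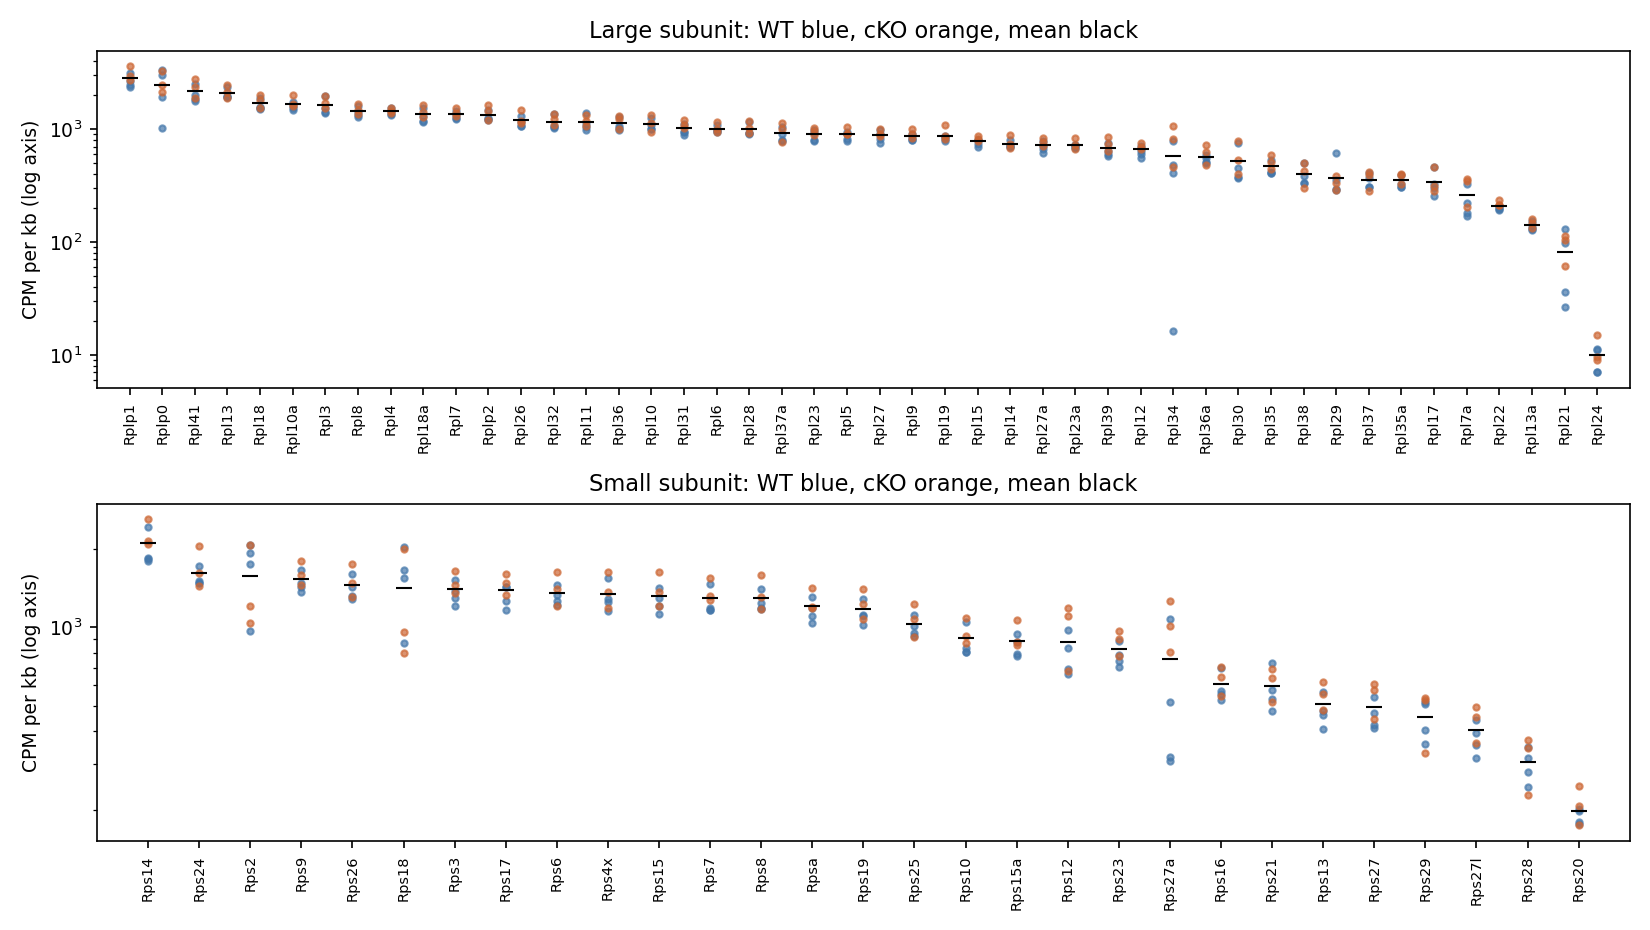
CPM per kb of transcript (log axis) of the tested members shown in the WT (blue) and cKO (orange) libraries, with the mean as a black dash, ordered by mean within the large (top) and small (bottom) subunit. WT and cKO points intermix at nearly every gene, and single libraries fall far from the rest for Rpl34 and Rplp0.

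Among genes that work with these proteins, the sign of the fitted values varied by list. Mitochondrial ribosomal protein genes, which serve the ribosome of the organelle, had 60 of 76 fitted values above 0 (median 0.077, 0 called). Translation factors and other mRNAs with TOP motifs had 12 of 16 above 0 (median 0.040, 0 called): Eef1b2, an exchange factor subunit of elongation, had 682, 699, 655 and 822 CPM across WT and 914, 758 and 742 CPM across cKO, and Tpt1, a classical TOP mRNA, had 1285, 1348, 1304 and 1538 CPM across WT and 1736, 1455 and 1358 CPM across cKO. Both followed the ribosomal proteins, with cKO replicate 1 highest and WT replicate 4 second. They do not stand for the whole list, whose fitted values ran from −0.088 to 0.17, with 4 of 16 below 0. Ribosome biogenesis factors had 14 of 37 above 0 (median −0.034) and regulators such as Myc, Mtor and Larp1 4 of 13 (median −0.035), with 0 called in each. In cKO replicate 1, where ribosomal protein counts were highest, these 2 lists had their lowest sums, 3840.2 and 1297 CPM, against 3866 to 4536 and 1413 to 1651 CPM in WT. Of 8 ribosomal protein genes outside the naming pattern 7 were above 0 (median 0.14, 0 called). Rack1, a scaffold on the small subunit, had 1455, 1639, 1499 and 1839 CPM across WT and 1906, 1727 and 1695 CPM across cKO, and Fau, which carries Rps30, had 482, 510.5, 516 and 596 CPM across WT and 676, 576 and 493 CPM across cKO.

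The promoters of the members had letters in common that the choice of genes did not use. RefSeq promoter windows (GRCm38.p6, 250 bases before to 50 after an annotated start) were found for 59 of 79 members, with 71 windows in all. The motif CCGGAAG, searched on both strands, occurred in 36.6% of member windows and in 8.86% of all 32851 windows of the table. GGGCGG occurred in 57.7% and 35.7%, ATGGCGG in 18.3% and 4.05%, and TATAAA in 8.45% and 13.6%. An unbroken run of at least 8 C or T that touches the 10 bases before to 20 bases after the start was found in 43.7% of member windows and in 16.9% of all. Large and small subunit windows had such a run in 46.5% and 39.3%. A match describes the letters only.

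The windows below run from 40 bases before to 20 after the annotated start, 5′ to 3′ on the gene's strand. Capitals mark the longest C or T run that touches the 10 bases before to 20 bases after the start. The windows show 3 members with a long run and 2 with a short one. Rpl34 (chr3:130730318-130730377, minus strand), Rpl4 (chr9:64173347-64173406, plus strand) and Rps6 (chr4:86857348-86857407, minus strand) had runs of 20, 14 and 10 bases. Rpl22 (chr4:152324396-152324455, plus strand) and Rpl41 (chr10:128549149-128549208, minus strand) had runs of 5 and 3 bases near the starts annotated there. Relative to the annotated start, the capitals began at −17 for Rpl34, −18 for Rpl4, −1 for Rps6, −10 for Rpl22 and −3 for Rpl41. Those of Rpl4, Rpl22 and Rpl41 ended before the annotated start, so they lie outside the annotated transcript. Rpl34 and Rpl22 had 2 annotated starts each, and the start with the longest run was chosen for display.
Rpl34: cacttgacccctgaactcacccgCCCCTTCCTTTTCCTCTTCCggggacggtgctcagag
Rpl4: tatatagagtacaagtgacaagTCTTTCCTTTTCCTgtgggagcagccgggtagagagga
Rps6: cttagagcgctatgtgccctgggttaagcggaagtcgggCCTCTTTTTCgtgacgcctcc
Rpl22: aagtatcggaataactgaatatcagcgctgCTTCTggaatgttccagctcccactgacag
Rpl41: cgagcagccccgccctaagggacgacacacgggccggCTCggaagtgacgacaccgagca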

How the data were processed

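The deposited table holds whole, unnormalized read counts made by the authors for 7 libraries. The submitters' processing notes name HISAT2, StringTie, featureCounts and build mm39. Their versions, their settings and the treatment of reads with several matches are not given in the sources used. The kit named per the labels' protocols does not mark strand. No per-sample column was left unused (0). Symbols, biotypes, chromosomes, lengths and transcripts came from GENCODE M21 (GRCm38), another build, so no gene coordinates are given from it. Counts were filtered with filterByExpr, given TMM factors (0.952 to 1.04) and analysed with edgeR 4.0.16 in R 4.3.3 (estimateDisp and glmQLFit robust, glmQLFTest, group only), with Benjamini-Hochberg adjustment over 16910 features and a threshold of 0.05. DESeq2 1.42.0 and limma 3.58.1 (voom) were alternatives. The fit was tested on simulated data. SEs follow from the F statistic, and SDs of log2 CPM used a prior count of 2.

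Copies were rows holding at least 50% of a member's 31-base coding words, each assigned once. Genes with values were, in each subunit, the 5 highest, the 3 smallest p in each direction, the 2 most and 2 least variable in WT, l paralogues with parents, and a list of stalk, 5S, X-linked and well-known genes; members with an SD over 0.3 and the copies named were added after their values were seen. The members, lists and tests were chosen with earlier results of these data known. Replicate numbers were not used as pairs in the main fit, and whether they mark pairs is not stated. Deviations of same-numbered libraries correlated at 0.284, 0.419 and 0.0597, and 4 of 6 libraries correlated best with their own number. No 2 libraries agreed within sampling noise (lowest chi-square over its degrees of freedom 11.1), so none was counted as a repeat. The results of some genes are not reported here one by one, and the plots leave them out.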

Additional observations from a re-analysis of the deposited data

Results flagged for a closer look

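Of 61 sets of 4 WT values looked at, 4 had 1 library far from the other 3 by Dixon's test, where chance gives about 1 in 20. WT replicate 4 was high for Rpl13, with 1845 CPM against 1498 to 1535 CPM in the other WT libraries. It was high for Rplp2 too, with 663 CPM against 542 to 559 CPM. The summed acinar genes, zymogens and other digestive enzymes, were 50094 CPM in WT replicate 4 against 23163 to 25220 CPM. WT replicate 3 had 368 CPM of Rps2-ps10, a copy of the small subunit gene Rps2, against 11.7 to 15.9 CPM. The groups of 3 cKO libraries were not looked at in this way. The Rps2-ps10 value recurred in 2 cKO libraries, with 441 and 366 CPM.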

How the results depend on the processing

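The count of 0 called members held with DESeq2, limma-voom, DESeq2 size factors, library totals, scaling without the members, no filter, a filter at 1 CPM, copies added and any 1 library left out (0 in each for both subunits). With the replicate block, on replicates 1 to 3 only, edgeR called 1 small subunit gene, 1 of all members: Rps27a (log2 fold change 1.44, adjusted p = 0.00196, Benjamini-Hochberg). That fit leaves out WT replicate 4, 4 of 6 libraries correlated best with their own number, and the numbers name samples only. Over all features it called 6 higher and 7 lower, where the same 6 libraries without the block gave 0 and 0 calls and all 7 libraries gave 1 and 0. Leaving out 1 library gave large subunit medians of 0.046 to 0.21 and small subunit medians of 0.037 to 0.20. The excess of the cKO over the WT share was 0.296 percentage points for the large and 0.183 for the small subunit, with ranges of 0.14 to 0.46 and 0.0682 to 0.33. The ratio of levels per length moved from 5.58 to 8.53 (large) and from 3.38 to 4.70 (small) with the union of exons as length.

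Of the 39 members looked at one by one, signs turned for 7 (Rpl10, Rpl13, Rpl17, Rpl23a, Rpl38, Rps4x and Rps6) without cKO replicate 1, for 2 (Rpl30 and Rplp0) without cKO replicate 2 and for 1 each without WT replicate 1 (Rplp0), WT replicate 2 (Rpl29) or WT replicate 3 (Rpl17). Their ranges over the libraries left out were −0.052 to 0.20 for Rpl10, −0.023 to 0.17 for Rpl13, −0.16 to 0.25 for Rpl17, −0.020 to 0.14 for Rpl23a, −0.33 to 0.11 for Rpl29, −0.074 to 0.50 for Rpl30, −0.089 to 0.26 for Rpl38, −0.078 to 0.39 for Rplp0, −0.033 to 0.19 for Rps4x and −0.0050 to 0.20 for Rps6. With both WT replicate 4 and cKO replicate 1 left out, chosen after seeing the data, signs turned for 4: Rpl21 (−0.021), Rpl23a (−0.011), Rps18 (0.040) and Rps2 (0.0094). The cause was not tested. With a median SE of 0.122, every member's 95% interval held 0.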

Other observations

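Other lists also differed between animals. The summed level of 8 neuronal and glial genes was 715, 96.1, 559.7 and 302 CPM in WT and 899, 126 and 145 CPM in cKO, high in WT replicates 1 and 3 and cKO replicate 1, and 3 of 8 were fitted above 0. Macrophage markers (8 genes) summed to 218, 232, 249 and 334 CPM in WT and 301, 262 and 250.4 CPM in cKO, and 7 of 8 were fitted above 0. The 13 mitochondrially encoded mRNAs, which code for respiratory chain subunits, summed to 13878, 23148, 18746 and 26735 CPM in WT and 20063, 21635 and 25746 CPM in cKO, with WT replicate 1 lowest, and 11 of 13 were fitted above 0. Each list had 0 members called.

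The share of counts on pseudogenes named after a cytosolic ribosomal protein gene was 0.308% to 0.381% in WT and 0.318% to 0.392% in cKO. It was highest in WT replicate 3 and cKO replicate 1.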
